A study of Homo sapiens with 15 samples.

Results

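The loci of 10 genes of the YAP and TEAD arm of Hippo signalling were followed in ATAC-seq peak lists of renal epithelial cells with and without SETD2. The genes were taken from a list that was chosen with earlier results of these data known. It holds the coactivators YAP1 and WWTR1 (which encodes TAZ), the transcription factors TEAD1, TEAD2, TEAD3 and TEAD4, and the target genes CCN1, CCN2, AMOTL2 and ANKRD1. These genes are 10 of the 19650 protein-coding genes tested, and each locus was the GENCODE gene body plus 20 kb on either side. In these windows 305 merged peak regions were found, of which 251 held a peak of at least 2 libraries, out of 295008 such regions in all. Hippo signalling is a kinase cascade in which MST and LATS kinases phosphorylate YAP and TAZ and keep them out of the nucleus. When the cascade is quiet, YAP and TAZ enter the nucleus, bind TEAD proteins on DNA and raise the expression of genes such as CCN1 and CCN2. In kidney epithelium the pathway is known for its response to cell density, stiffness and injury.

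All 15 libraries came from RPTEC, a human renal proximal tubule epithelial line immortalised with hTERT and kept under G418, and each of the 5 groups had 3 libraries. WT cells had intact SETD2, a gene whose product places the trimethyl mark on lysine 36 of histone H3. KO1 and KO2 were single-cell clones with a frameshift in SETD2 introduced by CRISPR, and Rescue1 and Rescue2 were single colonies of knockout cells that had been transduced with lentiviral, FLAG-tagged full-length SETD2 and selected with blasticidin. By their clone names both rescue lines derive from KO2. Knockout and rescue thus rest on 2 clones each, and effects of cloning cannot be told apart from effects of genotype. Called peaks cannot show a frameshift, so the SETD2 state of the libraries was not checked here. In bulk cells, a change in a fraction of the cells and a smaller change in all of them cannot be told apart.

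Each list held 196969 to 265193 peaks on the main chromosomes, and these covered a mean of 51.7 Mb in WT, 55.9 Mb in KO and 58.3 Mb in rescue libraries. Read depth is not part of the lists, so longer lists and deeper sequencing could not be separated. Of 8 kidney epithelial genes, 7 had a promoter peak in all 15 libraries; the exception was CDH1, with a peak in 3 WT libraries, 1 KO2 library and none of the other libraries. Of 4 genes of proximal tubule transport, CUBN, SLC34A1 and AQP1 had no promoter peak in any library, and LRP2 had one in 3 KO1 and 2 Rescue2 libraries. Promoter peaks of the leukocyte markers were absent from all libraries (3 of 3 genes), and so was that of COL1A2, whereas the mesenchymal genes PDGFRB, THY1 and COL1A1 were called in all 15, in 11 and in 2 libraries. Of the endothelial genes, KDR was called in all 15, PECAM1 in none and CDH5 in 5 rescue libraries and in no WT or KO library. The part of these differences in the results below was not tested.

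The sequences that carry the results are shown first, in hg38 and 5′ to 3′, with 2 motifs in capitals. GGAATG, on either strand (CATTCC), is the core that TEAD proteins bind, and TGANTCA, which reads alike on both strands, is the core of AP-1 sites, with which TEAD sites often share enhancers. A match of one motif may overlap a match of the other, and a match is a run of letters and not a shown binding site. The 250 bases before the RefSeq start (GRCh38.p14) were available for 7 of the 10 genes and not for TEAD1, TEAD4 and CCN1. GGAATG was found in 4 of the 7 (YAP1, CCN2, AMOTL2 and ANKRD1), against 11.9% of 35116 RefSeq promoters, and TGANTCA in 1 (ANKRD1), against 6.57%. The promoters of CCN2 (chr6:131951373-131951622, minus strand) and ANKRD1 (chr10:90921088-90921337, minus strand) are shown as those with the most GGAATG matches, 3 and 2. In CCN2 the matches begin 169, 104 and 95 bases before the start, and in ANKRD1 they begin 220 and 128 bases before it, with TGANTCA between them.
CCN2 promoter: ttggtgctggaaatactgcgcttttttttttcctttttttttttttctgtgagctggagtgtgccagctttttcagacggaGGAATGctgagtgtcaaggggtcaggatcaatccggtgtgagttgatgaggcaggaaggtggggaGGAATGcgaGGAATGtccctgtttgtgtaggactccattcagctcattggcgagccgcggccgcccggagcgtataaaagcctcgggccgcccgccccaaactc
ANKRD1 promoter: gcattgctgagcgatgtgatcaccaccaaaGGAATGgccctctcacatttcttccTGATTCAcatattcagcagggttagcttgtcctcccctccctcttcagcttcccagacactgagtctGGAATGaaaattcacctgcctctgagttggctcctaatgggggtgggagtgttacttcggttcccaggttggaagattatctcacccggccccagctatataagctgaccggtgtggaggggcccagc

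A further set of sequences, printed from the plus strand, is from regions outside annotated exons whose peak calls followed the groups, described below. They are an intronic WWTR1 region called in every KO library and no WT library (chr3:149588974-149589273, the central 300 bases), a TEAD1 region called in WT and not KO (chr11:12922013-12922189), a TEAD4 region called in rescue libraries only (chr12:2963928-2964222), and the stretch downstream of CCN1 under a peak of all 3 WT libraries and of no other library (chr1:85584590-85584795).
WWTR1, KO: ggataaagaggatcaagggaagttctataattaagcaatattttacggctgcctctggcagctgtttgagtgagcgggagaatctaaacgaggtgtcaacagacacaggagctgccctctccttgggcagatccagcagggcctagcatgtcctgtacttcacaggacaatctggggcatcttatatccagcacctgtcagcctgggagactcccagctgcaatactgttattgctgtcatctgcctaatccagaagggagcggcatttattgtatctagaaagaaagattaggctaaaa
TEAD1, WT: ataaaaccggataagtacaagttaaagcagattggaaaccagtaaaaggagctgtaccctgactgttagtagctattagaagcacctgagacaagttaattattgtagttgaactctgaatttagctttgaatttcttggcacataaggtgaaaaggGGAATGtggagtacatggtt
TEAD4, rescue: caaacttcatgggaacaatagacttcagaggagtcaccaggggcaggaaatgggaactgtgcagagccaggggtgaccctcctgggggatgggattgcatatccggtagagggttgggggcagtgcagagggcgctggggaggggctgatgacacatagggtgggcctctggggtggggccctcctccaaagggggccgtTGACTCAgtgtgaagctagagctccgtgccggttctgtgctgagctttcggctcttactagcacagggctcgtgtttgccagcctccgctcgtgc
CCN1 downstream, WT: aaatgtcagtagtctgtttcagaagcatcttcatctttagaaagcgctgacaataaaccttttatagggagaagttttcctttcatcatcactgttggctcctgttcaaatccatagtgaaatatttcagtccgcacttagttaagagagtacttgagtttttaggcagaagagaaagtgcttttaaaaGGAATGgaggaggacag
Of these, the TEAD1 and CCN1 stretches hold GGAATG, the TEAD4 region holds TGANTCA, and the WWTR1 region holds neither. In windows of 300 bases centred on the regions, GGAATG was present in 53 of the 251 regions at the 10 loci (21.1%) and in 20.9% of all 295008, and TGANTCA in 72 (28.7%) and in 31.7%. The loci thus carried both motifs at about the share of all regions. By locus, GGAATG was present in 1 of 8 regions at TEAD3, 6 of 17 at TEAD4 and 2 of 4 at CCN2.

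Peak regions were most numerous at the long genes, 77 at TEAD1, 63 at WWTR1 and 32 at YAP1, and fewest at CCN2, with 4. Of the 251 regions, 127 (50.6%) were called in all 15 libraries, against 35.6% of all regions of the series. Of the 34 promoter regions at the loci, 23 were called in all libraries, as were 72 of the 151 intronic and 14 of the 34 intergenic ones. The main start site of every gene lay under a peak in all 15 libraries, so that no main start site of the 10 genes was gained or lost as a called peak. The 34 promoter regions also take in other annotated start sites of coding genes. Of these 34, 2 were called between KO and WT, in the CCN1 window.

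The first comparison asked what distinguished the knockout clones from WT. Bases under called peaks, the measure used for a whole locus, were fewer in KO than WT at TEAD4 and CCN1 and more at CCN2, and did not pass the test at the other 7 loci. Across all genes 16.9% were higher and 15.7% lower at the same unadjusted threshold, an exact two-sided permutation p under 0.05, and 32.6% differed in either direction, so 1 gene higher and 2 lower of 10 is near the background. With 6 libraries against 3 the smallest p the design allows is 0.0238, and no gene of 19650 passed Benjamini-Hochberg adjustment (smallest adjusted p = 0.0946, exact permutation), whereas limma called 15.2% of genes higher and 13.1% lower after adjustment. Scaled to the library's own total of bases under peaks (bases per Mb of peaks), the median gene shifted by -0.12 on the log2 scale, and 13.0% of genes were higher and 39.9% lower. On that scale TEAD1, TEAD2 and TEAD3 were also lower, each at p = 0.0238 by the exact permutation test, which made 5 of 10 loci lower and 1 higher.

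The second comparison asked what SETD2 re-expression changed. Rescue libraries had more bases than KO libraries at TEAD1 and TEAD4 and fewer at CCN2. Among all genes 34.2% were higher and 7.12% lower (exact permutation, unadjusted), 41.3% in all, and 22.8% and 4.65% after adjustment; the smallest p with 6 against 6 is 0.00216. Per Mb of peaks these shares were 29.2% and 13.6%, and the same 3 loci passed in the same directions. Both comparisons use the KO libraries, so a fall followed by a rise at a locus is not seen in independent data. In the third comparison, of rescue and WT libraries, YAP1 and TEAD1 were higher and TEAD3 and CCN1 lower; 23.3% of all genes were higher and 3.97% lower (27.3% in all), or 13.7% and 28.3% per Mb of peaks. No gene passed adjustment (smallest adjusted p = 0.12, exact permutation), and limma called 21.8% higher and 4.05% lower. Leaving out single rescue libraries took YAP1, TEAD1 and TEAD3 to p = 0.0714 (exact permutation) in most cases. With 5 libraries against 3 the smallest possible p is 0.0357 and the next is 0.0714. Any overlap of the groups then loses the call, so these losses do not measure how stable the differences are. YAP1 and TEAD1 no longer passed per Mb of peaks, where the lower loci were TEAD2, TEAD3, TEAD4 and CCN1.

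**Figure D1:**
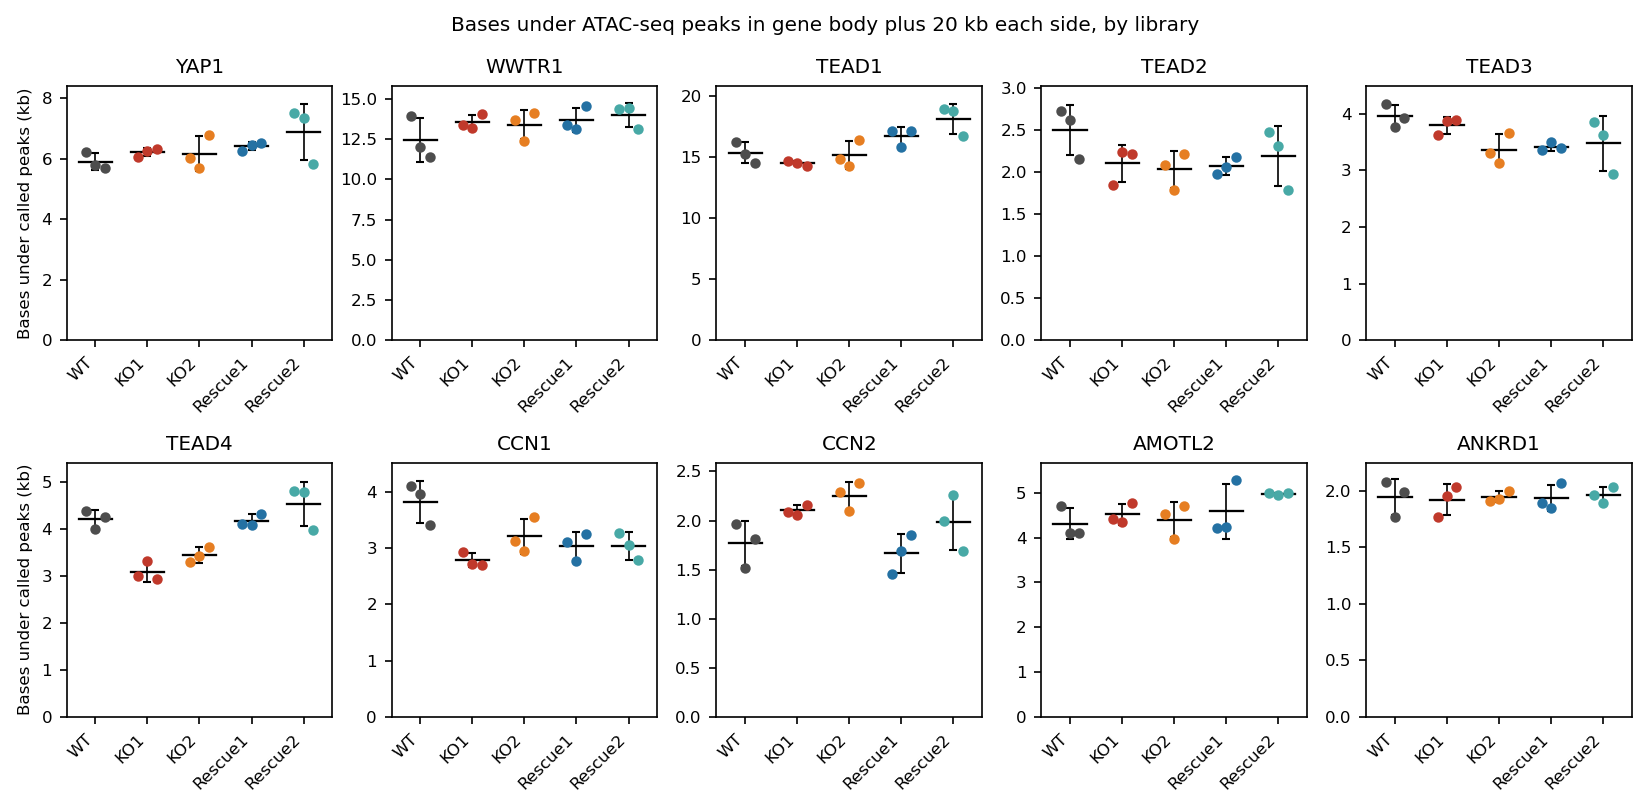
Bases under called peaks (kb) in the window of each gene, by library; points are libraries, horizontal lines group means and error bars SD (n = 3). At TEAD4 the 6 KO libraries (2939 to 3624 bases) lie below the 3 WT (3997 to 4380) and 6 rescue libraries (3994 to 4820), and at CCN2 the KO libraries (2059 to 2379) lie above WT (1519 to 1966).

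**Figure D2:**
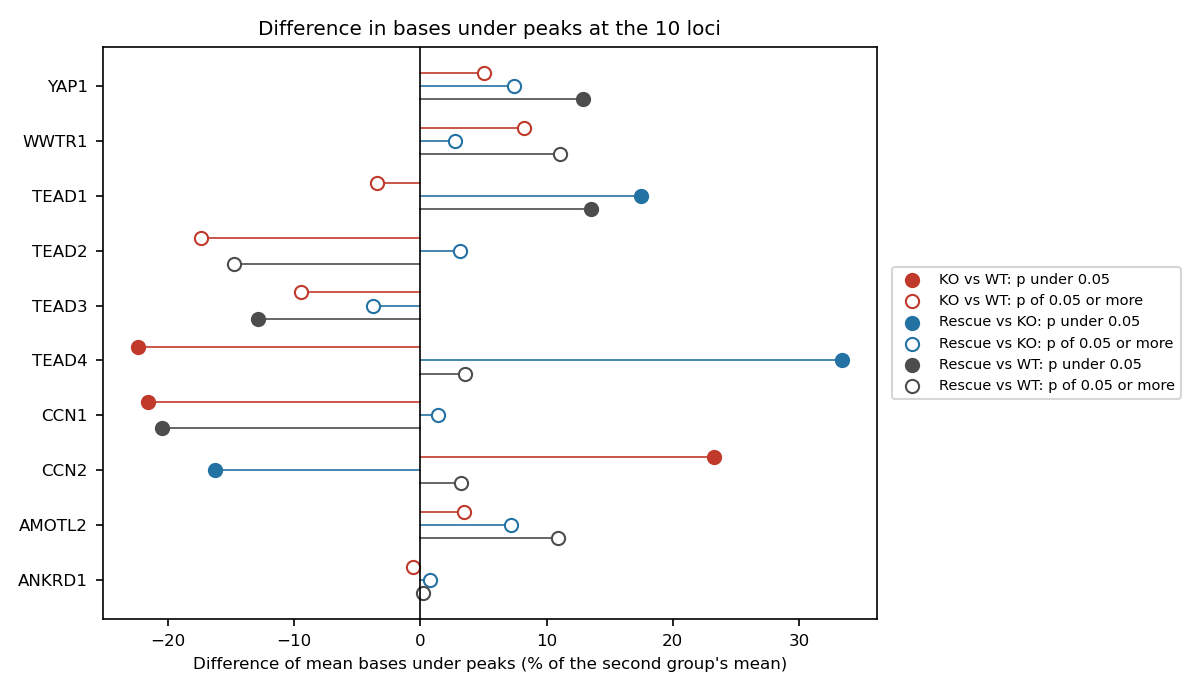
Difference of mean bases under peaks between groups, as a percentage of the second group's mean (x axis), for the 10 loci (y axis); filled points had an unadjusted exact permutation p under 0.05. TEAD4 moved by -22.4% from WT to KO and by 33.4% from KO to rescue, and ANKRD1 by less than 1% in all 3 comparisons.

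YAP1 and WWTR1 encode the coactivators. The YAP1 window (chr11:102090447-102253424) held 6219, 5790 and 5691 bases in the WT libraries, 5683 to 6801 in KO libraries (median 6171.5) and 5828 to 7500 in rescue libraries (median 6501). The 3 ranges overlapped. The difference was 299 bases (5.07%) from WT to KO (p = 0.286, exact permutation) and 459 (7.41%) from KO to rescue (p = 0.175, exact permutation). Rescue libraries exceeded WT by 758 bases (12.9%, unadjusted p = 0.0476, adjusted p = 0.174, exact permutation). That difference was 47.0 bases (p = 0.905, exact permutation) when each list kept its 150000 strongest peaks, 208 (p = 0.548) in the gene body alone and near 0 per Mb of peaks (-0.0514%). None of the 32 YAP1 regions was called in all libraries of one genotype and in none of another.

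The WWTR1 window (chr3:149497235-149756714) held 13955, 12039 and 11363 bases in WT, 12399 to 14123 in KO and 13112 to 14576 in rescue libraries, and no comparison passed (p = 0.167 for KO and WT, p = 0.368 for rescue and KO, both exact permutation). Of the regions inside it, 1 was gained and 1 lost in KO against WT by calls in all or none of the libraries. The gained region lay in an intron 68691 bp downstream of the start (chr3:149588913-149589334) and was under a peak in 0 of 3 WT, 6 of 6 KO, 1 of 3 Rescue1 and 0 of 3 Rescue2 libraries. In KO1 it covered 255, 248 and 205 bases and in KO2 168, 132 and 109. With lists of 150000 peaks it was no longer gained, with an occupancy difference of 16.7 percentage points. Where called, its strongest peak had a median percentile of 13.3 among the peaks of its own library, ranked by fold enrichment.

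Of the 4 TEAD genes, which encode the DNA-binding partners of YAP and TAZ, TEAD4 had fewer bases in KO than in WT and in rescue libraries. Its window (chr12:2939330-3060676) held 4380, 3997 and 4259 bases in WT (4212 ± 196, SD, n = 3). KO1 libraries had 3000, 3318 and 2939 bases and KO2 libraries 3300, 3426 and 3624. Rescue1 libraries had 4122, 4090 and 4335 bases and Rescue2 libraries 4820, 4802 and 3994. All KO libraries lay below all WT and all rescue libraries, and WT and rescue libraries overlapped. The difference from WT to KO was -22.4% (unadjusted p = 0.0238, adjusted p = 0.0946, exact permutation). Groups did not overlap in this direction at 11.9% of all genes. Rescue was higher than KO by 33.4% (p = 0.00216, adjusted p = 0.0156, exact permutation), and 11.1% of all genes had rescue libraries wholly above KO libraries. The direction was the same under every alternative tried for these comparisons, including the bases per Mb of peaks.

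The TEAD4 difference was spread over regions that do not include the start site, whose mean cover was 1715 bases in WT, 1671 in KO and 1651 in rescue libraries, with an SD of 157 bases over the WT libraries. A region 89965 bp downstream of the start, past the end of the gene and within a noncoding gene (chr12:3049362-3050205), was called in all libraries and covered a mean of 707 bases in WT, 394 in KO and 527 in rescue. An intronic region 1214 bp downstream of the start (chr12:2960611-2960964) was called in 3 WT, 2 of 6 KO and 6 rescue libraries, with means of 118, 30 and 290 bases. Next to it, 4531 bp downstream, lay the region called in rescue libraries only (chr12:2963928-2964222). It covered 276, 286 and 290 bases in Rescue1, 259, 121 and 230 in Rescue2 and none in the 9 other libraries. It was the only region at the loci called in every rescue library and in no WT or KO library. The window also holds part of TULP3, so a base in it need not belong to TEAD4.

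The TEAD1 window (chr11:12654421-12964737) held 16293, 15275 and 14550 bases in WT and 14246 to 16456 in KO libraries, with overlapping ranges (p = 0.357, exact permutation). Rescue libraries held 17176, 15846 and 17183 bases in Rescue1 and 18938, 18797 and 16714 in Rescue2. Rescue was higher than KO by 2592 bases (17.5%, p = 0.00433, adjusted p = 0.0236, exact permutation), with 5 of 6 rescue libraries above all KO libraries. Over WT the excess was 13.5% (unadjusted p = 0.0476, exact permutation), and per Mb of peaks it was 0.682% (p = 0.643, exact permutation). A pair of neighbouring regions near the 3′ end was called in 3 of 3 WT and 0 of 6 KO libraries. The first, in an intron (chr11:12922013-12922189), covered 154, 124 and 89 bases in WT and was called again in 4 of 6 rescue libraries. The second, in an exon of a noncoding gene within the TEAD1 intron (chr11:12922531-12922869), covered 299, 110 and 146 bases in WT and was called again in 5 of 6. The intronic region 22294 bp downstream of the start was called in all but 1 library, KO1 replicate 2, and narrowed from a mean of 473 bases in WT to 115 in KO, with 395 in rescue.

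TEAD2 and TEAD3 had fewer bases in KO without passing the test. TEAD2 had 2719, 2618 and 2158 bases in WT, 1788 to 2240 in KO and 1789 to 2476 in rescue libraries, a difference of -17.4% from WT to KO (p = 0.0952, exact permutation). In the gene body alone, which leaves out the CD37 exon below, the difference had the opposite sign (106 bases, p = 0.31, exact permutation). A region 22496 bp downstream of the TEAD2 start, in an exon of CD37, covered a mean of 469 bases in WT, 247 in KO and 12.8 in rescue. TEAD3 had 4175, 3774 and 3918 bases in WT, 3128 to 3891 in KO and 2937 to 3863 in rescue libraries, which is -9.47% in KO against WT (p = 0.0952, exact permutation) and -12.9% in rescue against WT (unadjusted p = 0.0476, exact permutation). Its start-site region covered 1430, 1344 and 1356 bases in WT, 785 to 1144 in KO and 904 to 1140 in rescue libraries. WT stood apart from both other genotypes there, and the share of all regions with such a separation is not given. In the gene body alone the TEAD3 difference was -518 bases (p = 0.0238, exact permutation).

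**Figure D3:**
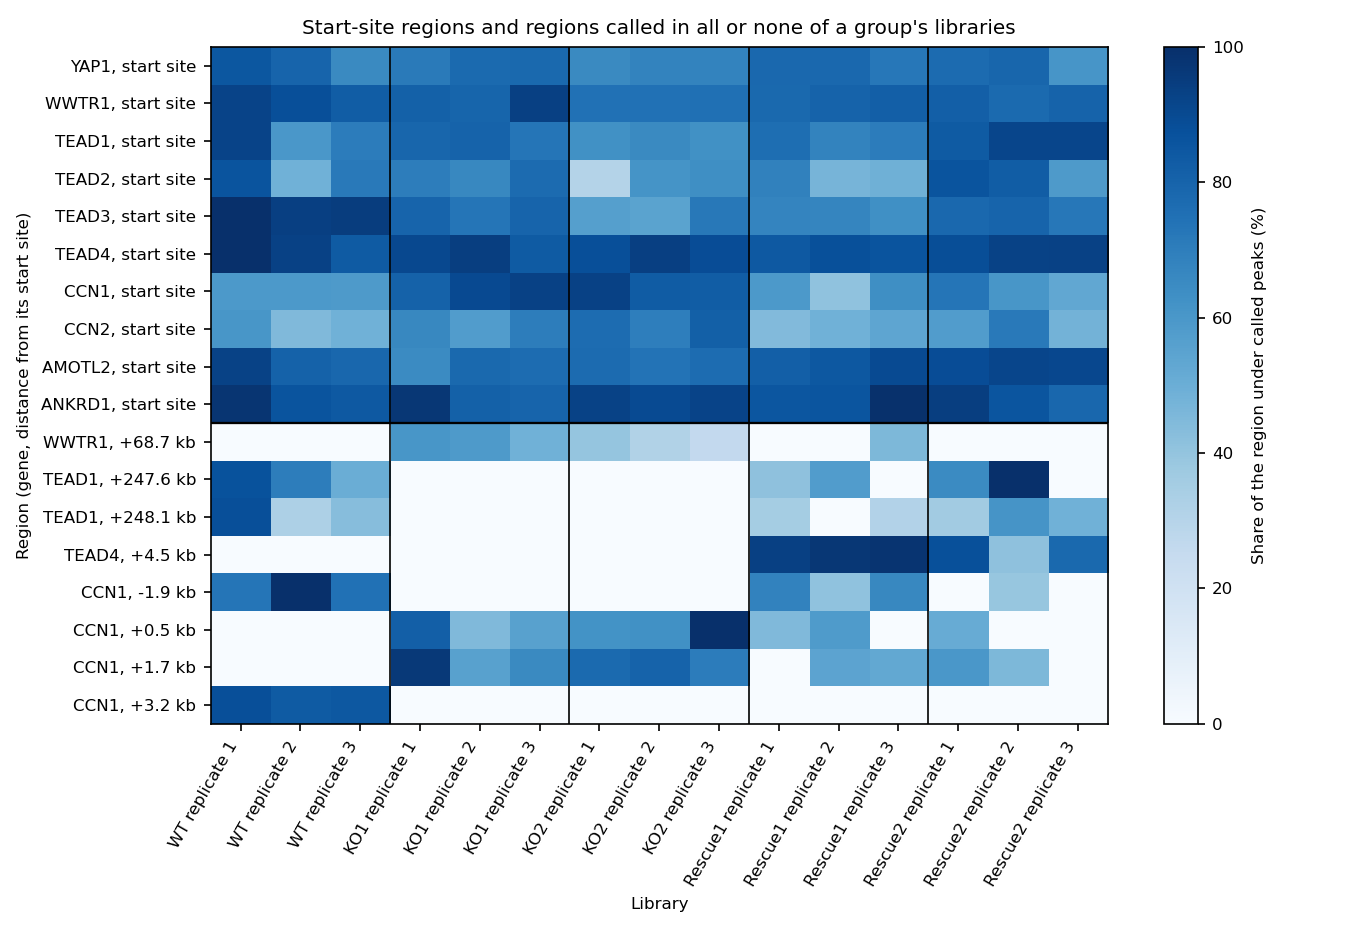
Share of each region under called peaks (colour, %) in the 15 libraries (x axis) for the 10 start-site regions and 8 regions called in all or none of the libraries of a genotype (y axis, with distance from the start in kb). The start sites are called in every library, the 2 CCN1 regions at 0.5 and 1.7 kb in no WT and every KO library, and the TEAD4 region at 4.5 kb in the 6 rescue libraries alone.

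Among all 251 regions, 3 were gained in KO against WT (called in 6 of 6 KO and 0 of 3 WT libraries) and 5 lost, that is 1.20% and 1.99%, against 4.79% and 2.48% of all regions. Between KO and rescue 2 were gained and 0 lost (0.797% and 0%), against 0.910% and 1.24%. Between WT and rescue 4 were gained and 2 lost (1.59% and 0.797%), against 4.48% and 2.09%. All these shares lay below the background, but 1.99% and 0.797% were close to theirs (2.48% and 0.910%), and none rests on more than 5 regions. A region called in all 15 libraries cannot be gained or lost, and such regions made up 50.6% at the loci against 35.6% of all. The part of this in the lower shares was not tested. The 8 regions called between KO and WT lay at WWTR1 (2), TEAD1 (2) and CCN1 (4), and the 2 called between rescue and KO at WWTR1 and TEAD4.

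CCN1 (CYR61) encodes a secreted matricellular protein and is an immediate target of YAP and TEAD. The CCN1 window (chr1:85560761-85604589) held 4100, 3962 and 3406 bases in WT, 2939, 2718 and 2707 in KO1, 3134, 2945 and 3546 in KO2 and 2768 to 3275 in rescue libraries. KO2 replicate 3 overlapped the lowest WT library, and the rescue libraries all lay below WT. The difference from WT to KO was -21.6% (unadjusted p = 0.0476, adjusted p = 0.146, exact permutation), and from WT to rescue -20.5% (unadjusted p = 0.0238, adjusted p = 0.12, exact permutation), where 2.90% of all genes had rescue libraries wholly below WT and 17.0% wholly above. Rescue and KO differed by 1.38% in the whole window (p = 0.794, exact permutation). In the gene body alone they differed by -310 bases (unadjusted p = 0.00216, exact permutation), so rescue was lower there. The share of all genes at that setting is not given. Leaving out any KO library other than KO2 replicate 3 gave p = 0.0714 for KO and WT (exact permutation). That is the next value above the smallest possible with 5 libraries against 3, 0.0357, so the overlap of KO2 replicate 3 alone fixed this outcome.

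The lower CCN1 total rested on 1 region. A run of peaks beginning 3226 bp downstream of the start (chr1:85583987-85585296), which starts just past the end of the main transcript, overlaps the last exon of a CCN1 transcript with a retained intron and ends beyond the gene, covered 1153, 1091 and 1107 bases in the WT libraries. No KO and no rescue library had a peak there. It was the only region at the loci called in every WT library and in no other library. Its peaks were low in fold enrichment: where called, the strongest had a median percentile of 1.47 by that measure. Without it, the window held a mean of 2706 bases in WT, 2998 in KO and 3040 in rescue libraries, so that KO was 292 bases above WT, a value computed after the region had been seen.

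Around the start site of CCN1 the direction was the opposite. The start-site region (chr1:85580519-85581058) covered 320, 319 and 317 bases in WT, 436 to 504 in KO and 220 to 395 in rescue libraries. KO libraries lay above all WT and all rescue libraries, and the share of all regions with such a separation is not given. A region over exon 2, 540 bp downstream (chr1:85581301-85581494), and a region over exon 4, 1711 bp downstream (chr1:85582472-85582658), both in coding sequence, were called in 0 of 3 WT and 6 of 6 KO libraries. In rescue they were called in 3 and 4 of 6 libraries. Upstream, at -1934 bp from the start and near a start site of DDAH1, a region (chr1:85578614-85578827) was called in 3 WT, 0 KO, 3 Rescue1 and 1 Rescue2 libraries. With lists of 150000 peaks, these 3 regions were no longer all-or-none (occupancy differences of 66.7 percentage points), whereas the downstream one stayed in 3 of 3 WT and 0 of 6 KO libraries. It stayed although its peaks ranked low in fold enrichment, so that cut did not order peaks by fold enrichment.

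**Figure D4:**
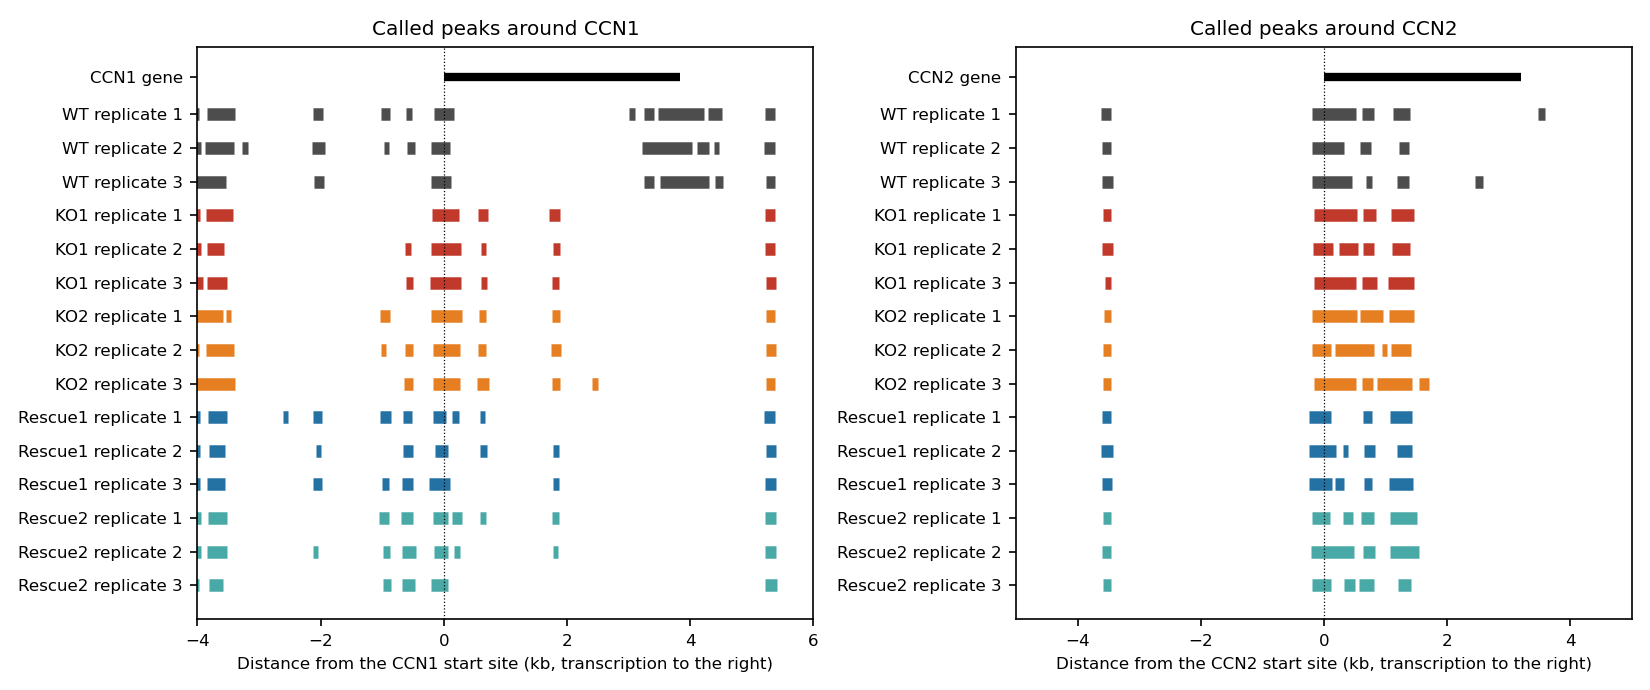
Called peaks (bars) of each library (rows) by distance from the start site of CCN1 (left) and CCN2 (right), in kb with transcription to the right; the black bar is the gene. The run of peaks at the 3′ end of CCN1 is present in the 3 WT libraries only, and a peak lies over the CCN2 start site in all 15.

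CCN2 (CTGF), a matricellular protein tied to fibrosis, differed from CCN1 in the direction of its window total from WT to KO. The CCN2 window (chr6:131928176-131971372) held 1966, 1519 and 1815 bases in WT, 2089, 2059 and 2161 in KO1 and 2286, 2098 and 2379 in KO2. Rescue1 had 1455, 1685 and 1856 bases and Rescue2 1991, 2263 and 1693. Every KO library lay above every WT library, and 5 of 6 rescue libraries lay below all KO libraries. KO was higher than WT by 412 bases (23.3%, unadjusted p = 0.0238, adjusted p = 0.0946, exact permutation; not overlapping in this direction, 13.3% of all genes). From KO to rescue the difference was -355 bases (-16.3%, unadjusted p = 0.0216, adjusted p = 0.0671, exact permutation). At an unadjusted p under 0.05, 7.12% of all genes were lower in rescue. Groups do not overlap in this direction at 2.82% of all genes. CCN2 was not among these, because Rescue2 replicate 2 (2263 bases) lay within the range of the KO libraries. With Rescue2 alone the difference was -196 bases (p = 0.238, exact permutation). Rescue and WT differed by 3.24% (p = 0.786, exact permutation).

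All 4 CCN2 regions found in at least 2 libraries were called in all 15, and what differed was how much of them lay under peaks. The region over the start site and the 5′ part of the gene (chr6:131949673-131951616), which takes in nearly all of the promoter shown above, covered 1171, 872 and 946 bases in WT, 1118 to 1583 in KO and 862 to 1390 in rescue libraries. A region at -15100 bp, upstream and within a noncoding gene (chr6:131966472-131966943), covered 283, 239 and 310 bases in WT, 394 to 462 in KO and 284 to 369 in rescue libraries, so that KO exceeded both other genotypes in every library. Its strongest peak had a median percentile of 94.2. The share of all regions where KO stands apart in this way is not given. The remaining 2 regions had means within 31.0 bases of each other in KO and WT.

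AMOTL2, which encodes an angiomotin that binds YAP, and ANKRD1, which encodes a muscle ankyrin repeat protein, did not pass in the whole window in any of the 3 comparisons with both clones of each genotype. AMOTL2 held 4716, 4115 and 4112 bases in WT, 3976 to 4784 in KO and 4220 to 5292 in rescue libraries, with p = 0.524 for KO and WT and p = 0.169 for rescue and KO (exact permutation). With Rescue2 alone it was 521 bases above KO (p = 0.0238, exact permutation). In the gene body alone AMOTL2 was higher in KO by 405 bases (p = 0.0476, exact permutation). ANKRD1 held 2084, 1771 and 1989 bases in WT, 1770 to 2036 in KO and 1848 to 2068 in rescue libraries. The 3 means were 1948, 1936 and 1952 bases, within the spread of any group.

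Promoter strength was compared by rank. The strongest peak within 500 bp of the start was placed as a percentile among all peaks of its own library by fold enrichment, which does not need heights to match between libraries but moves with the length of the list, a mean of 202669 peaks in WT, 221764 in KO and 226599 in rescue libraries. ANKRD1 had the highest promoter percentile of the 10 genes in every library (88.3 to 96.9), and TEAD1 followed (64.7 to 84.5), while CCN1 had the lowest in most libraries (0.503 to 15.1). The CCN1 percentile was 0.503, 1.95 and 0.753 in WT and 4.84 to 11.9 in KO (difference 8.04 percentile points, unadjusted p = 0.0238, adjusted p = 0.171, exact permutation), and 4.26 to 15.1 in rescue libraries. Counted from the top of the list, however, a mean of 200535 peaks were stronger in WT and 201458 in KO, and with list lengths set equal, an alternative chosen after seeing the data, the difference was -0.348 (p = 0.952, exact permutation). The CCN1 difference in percentile was thus not seen with list lengths set equal. In WT, however, 193131 to 211305 peaks were stronger in lists of 196969 to 212373, so the CCN1 peak lay near the end. The length of a list limits how low a called peak can stand in this rank. It therefore cannot decide whether the percentile difference holds. YAP1 fell from 42.0 to 49.9 in WT to 28.9 to 42.0 in KO (difference -8.47, unadjusted p = 0.0476, adjusted p = 0.245, exact permutation), a call that did not hold without any of KO1 replicates 1, 2 and 3 or KO2 replicates 2 and 3. In those cases p was 0.0714 (exact permutation), the next value above the smallest possible, 0.0357. With list lengths set equal the YAP1 difference was -11.0 (p = 0.0238), and TEAD2 was also lower by that rank (-11.1, p = 0.0476, both exact permutation). CCN1 higher and YAP1 lower make 1 of 10 each way, against 10.5% and 8.93% of 15356 promoters. When peaks were ranked by −log10 q, the CCN1 difference was 10.3 at p = 0.0714, and rescue lay below KO by a difference of -8.62 (p = 0.0152, both exact permutation).

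From KO to rescue, 5 of the 10 promoters were lower in rank and 1 higher at an unadjusted p under 0.05, against 23.1% and 6.91% of all promoters, and none passed adjustment (exact permutation, smallest adjusted p of the 10 = 0.0511). The lower ones were TEAD1 (-9.13 percentile points), TEAD3 (-9.7), TEAD4 (-11.7), AMOTL2 (-5.56) and ANKRD1 (-3.66). CCN2 was higher by 9.35, and by 1.83 when ranked by −log10 q. TEAD1 and TEAD4 thus had lower promoter ranks in rescue libraries although their windows held more bases, and CCN2 a higher rank although its window held fewer. Calls at TEAD3, AMOTL2 and CCN2 did not hold when some single libraries of either genotype were left out, among them KO1 replicates 1 and 2 and Rescue1 replicate 1, which left 3 calls. With list lengths set equal, TEAD1, TEAD4, ANKRD1 and CCN2 still passed in the same directions, and TEAD3 (p = 0.0887) and AMOTL2 (p = 0.123, exact permutation) did not.

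**Figure D5:**
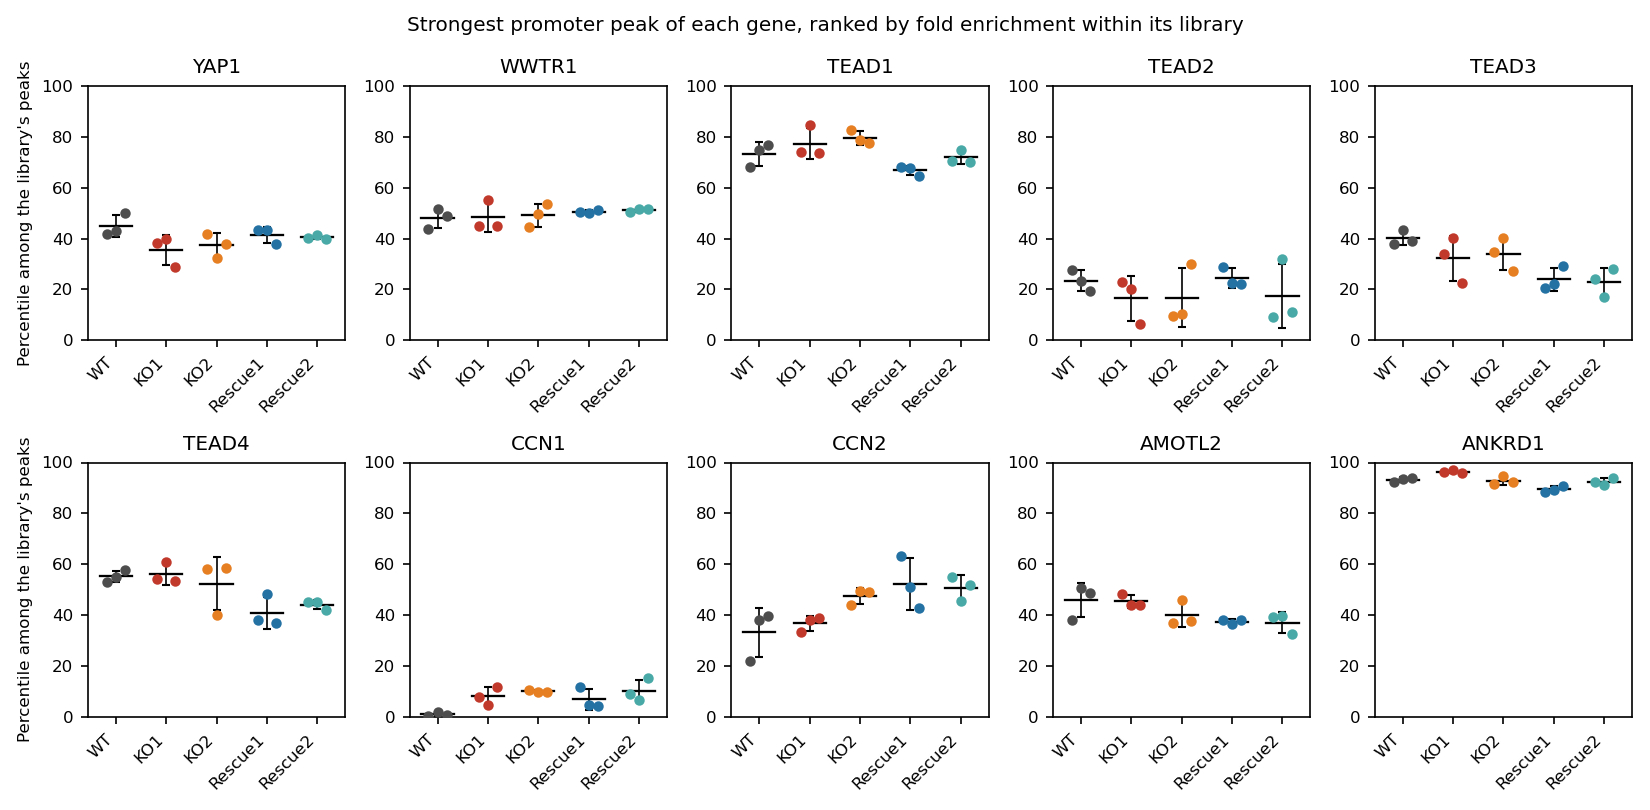
Percentile of the strongest promoter peak among all peaks of its library, ranked by fold enrichment (y axis, 0 to 100), for the 10 genes by group; points are libraries, lines means and error bars SD (n = 3). CCN1 lies at 0.503 to 1.95 in WT and at 4.26 to 15.1 in the other 12 libraries, whose lists were longer on average (a mean of 221764 peaks in KO and 226599 in rescue libraries against 202669 in WT), and ANKRD1 lies above 88 in all 15.

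The rest of the pathway was examined through 3 lists, also chosen with earlier results of these data known. Of 26 Hippo kinases and upstream regulators, 1 was higher and 4 lower in KO than WT (16.9% and 15.7% of all genes), and 8 were higher and 1 lower in rescue than KO (34.2% and 7.12%), with median differences of -1.62% and 9.17% against -0.404% and 7.69% over all genes. Per Mb of peaks 15 of the 26 were lower in KO, against 39.9% of all genes. SCRIB, a polarity scaffold, fell from 2852, 2823 and 2836 bases in WT to 1884 to 2256 in KO (-26.8%, p = 0.0238, exact permutation) and was at 2402 to 3238 in rescue (36.6% above KO, adjusted p = 0.0156, exact permutation). From WT to KO, MOB1A, the LATS cofactor, fell by 22.2% and LATS1, a YAP kinase, fell by 15.2% (each p = 0.0238, exact permutation), and rescue exceeded KO by 37.7% and 20.7% (adjusted p = 0.0156 and 0.0417). MOB1B and the kinase TAOK1 were higher in rescue than KO by 21.2% and 20.9% and did not pass between KO and WT. FAT4, an atypical cadherin upstream of the cascade, was the list's only gene higher in KO at an unadjusted p under 0.05 (p = 0.0238, exact permutation). It held 2313, 2012 and 2080 bases in WT, 2645 to 3151 in KO and 3258 to 4347 in rescue libraries, so that rescue lay further from WT than KO did.

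Of the 4 VGLL genes, whose products compete with YAP and TAZ for TEAD, 3 were higher in KO than WT, against 16.9% of all genes, and 2 were higher per Mb of peaks, against 13.0%. VGLL3 held 809, 623 and 683 bases in WT, 2656, 2562 and 2679 in KO1, 1809, 1825 and 2124 in KO2 and 1600 to 2241 in rescue libraries, which is 223% more in KO (unadjusted p = 0.0238, exact permutation) and stayed high in rescue (-12.9% against KO, p = 0.145, exact permutation). The VGLL3 means were 2632 bases in KO1, 1919 in KO2 and 1982 in rescue libraries, so rescue lay below KO1 and not below KO2. VGLL2 held 1123, 1079 and 1044 bases in WT, 1308 to 1835 in KO and 752 to 1146 in rescue libraries; the difference from KO to rescue was -38.6% (adjusted p = 0.0156, exact permutation). VGLL1 was 47.2% higher in KO at a low level, 345 bases in WT and 508 in KO (p = 0.0476, and 0.0714 per Mb of peaks, exact permutation). Of 18 other YAP and TAZ targets, 5 were higher and 0 lower in KO than WT (16.9% and 15.7% of all genes), and 2 were higher and 1 lower in rescue than KO (34.2% and 7.12%). Per Mb of peaks 2 were higher and 4 lower in KO (13.0% and 39.9%). FOXF2, a forkhead factor, rose from 1283 ± 290 bases in WT (SD, n = 3) to 2648 ± 141 in KO (SD, n = 6), and DOCK5, a Rac exchange factor, from 5079 ± 660 to 7662 ± 390 (each unadjusted p = 0.0238, exact permutation). DOCK5 was higher still in rescue, by 12.2% (adjusted p = 0.0301, exact permutation). CCDC80, RBMS3 and MYOF were 14.6% to 15.5% higher in KO and did not pass per Mb of peaks (p = 0.0714, 0.0714 and 0.214, exact permutation), and NT5E was 11.3% higher in rescue than KO (p = 0.039, exact permutation).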

How the data were processed

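ATAC-seq was performed on 15 RPTEC libraries, grouped by their titles. Per the labels, the authors aligned reads to hg38 with BWA 0.7.17 and called peaks with MACS2 2.2.7.1. The lists, 1 per library and not pooled, hold intervals, fold enrichment (ratio), −log10 p, −log10 q and a score as deposited by the authors. They hold no read counts, so the DiffBind 2.14.0 test of the study was not run. Heights were used only for ranks within a library. All 99 contig names were in the hg38 reference and no peak passed a contig end; 0.282% of peaks lay off the main chromosomes and were left out.

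Peaks sharing at least 1 bp were merged, and regions with peaks of at least 2 libraries were kept. Genes and exons were from GENCODE 44. Bases under peaks were tested by exact permutation of library labels, two-sided, over 19650 genes with Benjamini-Hochberg adjustment; no source says that libraries came from separate cultures, so p-values measure the spread between libraries, which may be technical. limma 3.58.1 on log2(bases + 200) was an alternative, with others given below. Code was tested on simulated data. Start-site regions of the 10 genes and all-or-none regions of the first 2 comparisons were named by rule. Further regions at TEAD1, TEAD2, TEAD4 and CCN2 were described outside this rule, with their values known. Of the pathway lists, at most 6 genes each were named, with an unadjusted p under 0.05 and the largest percent differences. Not every all-or-none region counted is described, and 1 is not reported here. The members and lists were chosen with earlier results of these data known. The paper names another BWA version and a larger cell input than the labels, and the design text says duplicates.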

Additional observations from a re-analysis of the deposited data

Results flagged for a closer look

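Of 40 sets of values over the 6 KO or 6 rescue libraries, 2 held a library far from the others, and chance gives about 1 in 20. At TEAD1, KO2 replicate 3 held 16456 bases under peaks, while the other 5 KO libraries held 14246 to 14851 (median 14559). The TEAD4 promoter peak of KO2 replicate 2 stood at percentile 40.2, while the other KO libraries stood at 53.3 to 60.7 (median 58.2).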

How the results depend on the processing

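Of the values for single loci, regions and promoters, 853 kept their direction and side of the threshold under the alternatives, 78 lost and 16 gained a call, and 60 changed sign; the cause of the changes was not tested. Of 10 loci, 3 passed between KO and WT, against 5 with 150000 peaks per library, 5 in the gene body and 6 per Mb of peaks. Per Mb of peaks 13.0% of all genes were higher and 39.9% lower. The shares of all genes with 150000 peaks and in the gene body are not given, so those counts have no background. Between rescue and WT 4 passed, against 1 by limma with or without the replicate block and 1 to 2 when single rescue libraries were left out.
Regions gained and lost between KO and WT numbered 3 and 5. They numbered 8 and 8 when 50% of a region had to be covered and 18 and 21 under a majority rule, 1 was gained with 150000 peaks, 7 were gained with KO2 alone and 8 lost with KO1 alone. The shares of all regions under these settings, here and for rescue and KO below, are not given. Leaving out single libraries gave 3 to 7 gained, with 7 without WT replicate 1 and 5 without WT replicate 3. Between KO and rescue 2 and 0 became 4 and 1 with 50% covered and 19 and 8 under the majority rule, 1 was lost with 150000 peaks, and 0 to 2 were lost when single libraries were left out. Promoter rank calls ran from 1 to 2 for KO and WT and from 3 to 6 for rescue and KO.
Signs changed as follows. With 150000 peaks, KO and WT differed by -50.2 bases at YAP1 and -284 at AMOTL2, rescue and KO by -154 at TEAD2 and 257 at TEAD3, and rescue and WT by -21.0 at TEAD4 and -46.3 at ANKRD1. In the gene body, TEAD2 differed by 106 (KO and WT) and 159 (rescue and WT), CCN1 by -310 and AMOTL2 by -39.3 (rescue and KO), and CCN2 by -23.7 (rescue and WT). Of these only CCN1 passed (unadjusted p = 0.00216, exact permutation). In bases per Mb of peaks, KO and WT differed by -3.36 at YAP1 and -3.57 at AMOTL2. Rescue and KO differed by -3.05 at WWTR1, -0.432 at TEAD2, -1.31 at CCN1 and -0.998 at ANKRD1. Rescue and WT differed by -0.0587 at YAP1, -2.37 at WWTR1, -6.80 at TEAD4, -2.95 at CCN2, -1.13 at AMOTL2 and -4.02 at ANKRD1. With KO2 alone, ANKRD1 differed from WT by 2.67, and rescue from KO by 80.8 at TEAD3 and -169 at CCN1. With Rescue1 alone, rescue and WT differed by -29.7 at TEAD4, -101 at CCN2 and -10.0 at ANKRD1. Ranked by −log10 q, KO and WT promoters differed by -1.35 at WWTR1, -2.43 at CCN2 and -1.19 at ANKRD1, and with list lengths set equal, chosen after seeing the data, by -2.90 at WWTR1 and -0.348 at CCN1. Without the downstream CCN1 region, an alternative chosen after seeing the data, CCN1 differed by 292 (KO and WT) and 334 (rescue and WT).
Leaving out single libraries turned ANKRD1 bases (-100 to 56.2 for KO and WT, -17.9 to 36 for rescue and KO, -85.0 to 71.5 for rescue and WT), CCN1 (-16.7 to 151) and TEAD2 (-5.40 to 132) for rescue and KO, and CCN2 for rescue and WT (-66.7 to 157). It also turned the promoter ranks of CCN1 for rescue and KO (-1.87 to 0.299) and of TEAD4 (-2.36 to 1.73) and WWTR1 (-1.44 to 2.54) for KO and WT.
Libraries of the same number did not deviate together (r from -0.159 to 0.0490 over 30 pairs), so the numbers were not taken as pairs. With the replicate block, added for limma after seeing the data, 2 loci passed limma after adjustment between KO and WT, and 3 between rescue and KO. CCN2 was no longer among the 2 (adjusted p = 0.0546, limma). By the exact test with the block, unadjusted, 4 promoters passed in place of 6. In comparisons with WT, without a WT library, with 1 clone, or with the block, the smallest possible exact p is 0.0714, 0.1 and 0.0741, so no call could be made. Without 1 KO or rescue library in these comparisons it is 0.0357 and the next value is 0.0714, so any overlap of the groups lost the call. limma called 15.2% of all genes higher and 13.1% lower between KO and WT after adjustment, where the exact test called none.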
